A study of Mus musculus with 12 samples.

Results

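The genes described here are 37 genes of T and NK lymphocytes, chosen by name, with earlier results of these data known. They fall into pan-T genes, genes of CD4 and regulatory T cells, genes of CD8 and cytotoxic T cells, and NK cell genes. Of the 37, 34 were measured, out of 19937 genes on the array that had a probe set with exactly 1 symbol. Each of the 34 had a single such probe set. Lck, Tcf7 and Il2rg were not analysed here. The measured genes comprise 14 pan-T genes, 5 CD4 and regulatory genes, 9 CD8 and cytotoxic genes and 6 NK genes.

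The RNA came from 12 prostate tumours, each from a different mouse. All arose from the mouse prostate carcinoma line TRAMP-C2Re3, of which 50000 cells were placed in the prostate and left for 60 days. The hosts were C57BL6 mice, 6 with a knockout of p62 (KO hosts) and 6 wild type (WT hosts). The same line was injected in both groups, so that the genotypes differ in the host cells, lymphocytes included, and not in the injected cells. The labels give no knockout allele, age or batch. The protein p62, encoded by Sqstm1, is an autophagy receptor and signalling adaptor, and the comparison asks whether its loss in the host goes with other lymphocyte RNA in the tumour.

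T cells recognise peptides held by MHC molecules through a receptor that signals by way of the CD3 chains and the kinase ZAP-70. CD8 T cells read MHC class I and kill through perforin and granzymes, CD4 T cells read MHC class II, and regulatory T cells, marked by FOXP3, restrain the others. NK cells lack the T cell receptor and use activating and inhibitory receptors to kill with the same granule proteins. In whole tumour RNA a low level of such a gene can mean fewer of these cells or less of the RNA per cell, which cannot be told apart here.

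Start-site sequences of 4 of the genes are shown because Cd3e and Cd3g, chains of the same receptor complex, and Nkg7 and Prf1, both of cytotoxic granules, stand for genes that did and did not vary together below. They are the 250 bases before the start of transcription, from RefSeq on GRCm38.p6, printed 5′ to 3′ on the strand of the gene. Capitals mark matches on either strand to TGTGGT, the core bound by RUNX factors, and to CAGGAAG, a site of ETS factors. The positions are chr9:45009612-45009861 on the minus strand for Cd3e, chr9:44980432-44980681 on the minus strand for Cd3g, chr7:43436888-43437137 on the plus strand for Nkg7 and chr10:61297586-61297835 on the plus strand for Prf1.
Cd3e: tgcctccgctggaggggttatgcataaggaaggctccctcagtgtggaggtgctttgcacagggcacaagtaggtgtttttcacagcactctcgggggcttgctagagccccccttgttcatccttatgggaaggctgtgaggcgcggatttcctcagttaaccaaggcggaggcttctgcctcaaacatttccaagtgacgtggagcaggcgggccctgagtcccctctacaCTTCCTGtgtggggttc
Cd3g: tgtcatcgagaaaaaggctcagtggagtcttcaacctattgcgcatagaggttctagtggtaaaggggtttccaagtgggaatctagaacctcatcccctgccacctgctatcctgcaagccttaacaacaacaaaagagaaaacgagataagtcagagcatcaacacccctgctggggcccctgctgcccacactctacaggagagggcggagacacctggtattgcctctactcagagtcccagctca
Nkg7: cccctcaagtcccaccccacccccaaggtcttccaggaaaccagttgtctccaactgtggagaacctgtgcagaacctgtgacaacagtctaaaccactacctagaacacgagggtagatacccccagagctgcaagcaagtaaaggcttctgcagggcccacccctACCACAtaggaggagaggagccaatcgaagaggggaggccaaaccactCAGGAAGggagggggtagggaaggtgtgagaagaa
Prf1: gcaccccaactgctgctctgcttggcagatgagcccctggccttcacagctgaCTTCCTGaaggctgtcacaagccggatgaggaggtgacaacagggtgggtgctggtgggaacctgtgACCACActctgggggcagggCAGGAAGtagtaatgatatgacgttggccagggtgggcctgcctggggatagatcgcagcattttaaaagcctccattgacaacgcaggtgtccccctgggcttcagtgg

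The Cd3e window held 1 ETS match, whose first base lay 17 bases before the start. The Nkg7 window held 1 RUNX match at 83 bases and 1 ETS match at 35 bases before the start. The Prf1 window held 1 RUNX match at 130 bases and 2 ETS matches at 110 and 197 bases, and the Cd3g window held none of these letters. No 2 of these matches shared a base. RefSeq windows were found for 28 of the genes, some with several start sites. TGTGGT stood in 11 of their 37 windows (29.7%) and in 14.0% of all 32851 windows, and CAGGAAG in 13 (35.1%) and in 10.8% of all. A match is a description of the letters and not of a bound site.

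Values are deposited log2 intensities for which the submitters name RMA, a method that corrects background, normalizes arrays and summarises the probes of a probe set. Precision here is set by how many arrays there are. As deposited, the arrays still differed in spread, and the cause was not tested. KO hosts 2 and 3 and WT hosts 2 and 5 had interquartile ranges of 2.15 to 2.59 on the log2 scale, against 2.70 to 2.95 in the other 8. Sqstm1 was at 8.17 to 9.22 in KO hosts and 8.55 to 9.16 in WT hosts, which does not check the labels because the injected cells, the same line in both groups, add RNA of their own. The mean over 8 epithelial markers was 5.91 to 6.49 per tumour, where the medians of the arrays were 6.21 to 6.44. Krt8 among them lay between 7.76 and 8.65 in all tumours. The mean over 6 genes of prostate gland secretion and identity was 3.48 to 4.42, below the lower quartile of every array (4.85 to 5.36).

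No difference between the host genotypes passed the test in any of the 34 genes. In limma, with Benjamini-Hochberg adjustment over all 28192 probe sets, 0 of 34 passed an adjusted p under 0.05, and their adjusted p lay between 0.9935 and 0.9996. Of all probe sets, 1 passed (0.00355%). None of the 34 reached an unadjusted p under 0.05 either, a level reached by 675 of all probe sets (2.39%), and the smallest was 0.13. In all 34 the 6 KO tumours and the 6 WT tumours overlapped, whereas the groups did not overlap in 41 of all probe sets (0.145%). The differences, KO hosts minus WT hosts, were above 0 in 15 genes and below 0 in 19, with a median of -0.01. Over all 28192 probe sets 16136 were above 0 and 12056 below, with a median of 0.02. The balance among the 34 genes depended on the arrays and their scaling. It was 10 above and 24 below with a common median per array and with quantile normalization, 5 and 29 without KO hosts 2 and 3, and 23 and 11 without KO host 6.

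The 95% intervals reached 0.21 to 0.55 to each side of the estimate, and no bound of any gene lay beyond 0.64 on the log2 scale, or 1.56-fold. That outermost bound was the lower one of Cd8a. From the lowest to the highest tumour, the 34 genes spanned 0.49 to 1.53, with a median of 0.74, while the median absolute difference between the genotypes was 0.05.

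**Figure D1:**
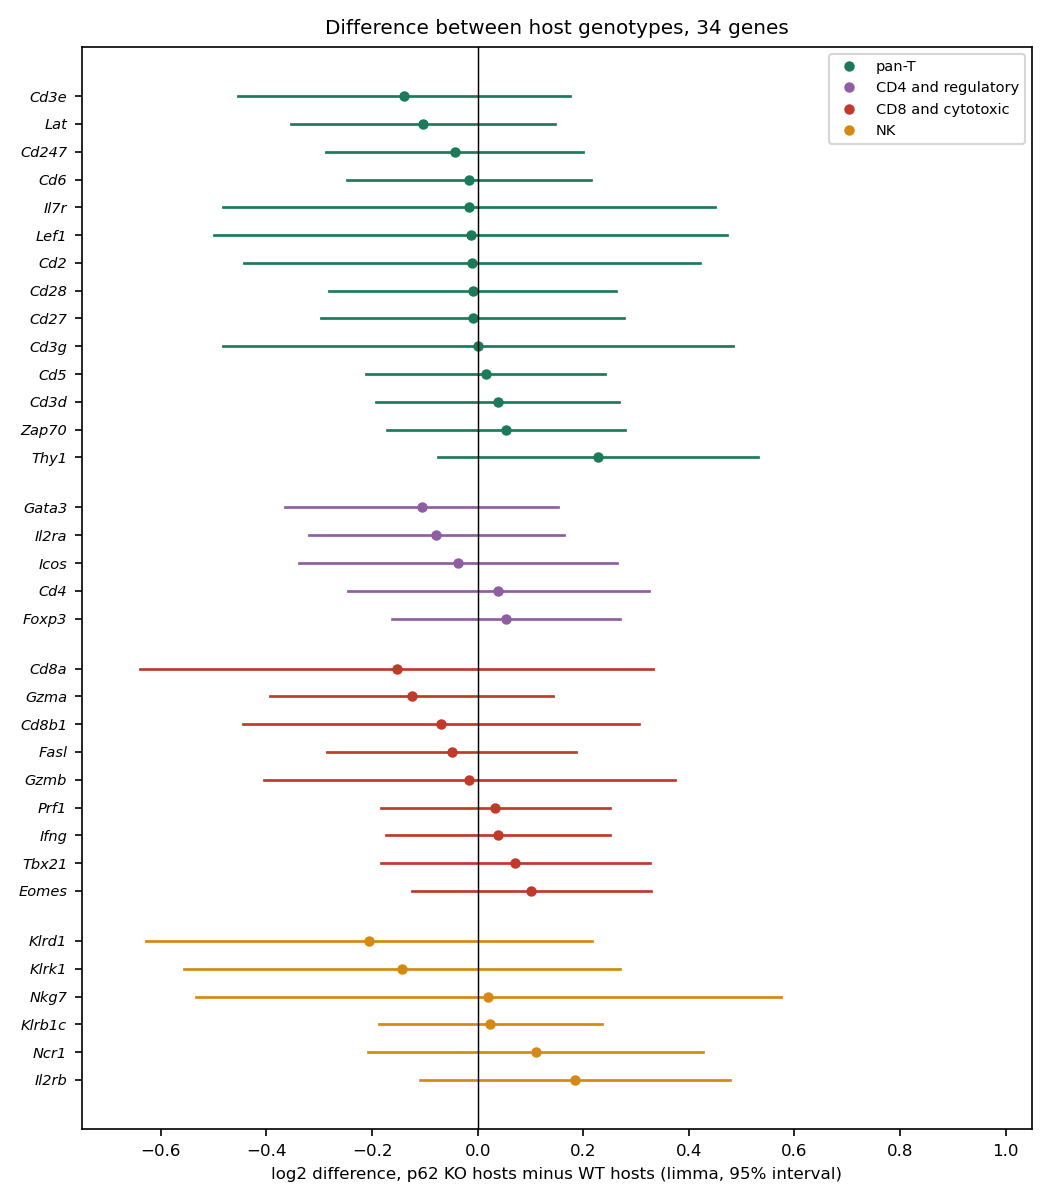
Difference between tumours of p62 KO and WT hosts for each of the 34 measured genes, on the log2 scale, with its 95% interval from limma, by group of genes. All 34 intervals cross 0, and the largest difference is that of Thy1, at 0.23.

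Among the pan-T genes, 5 were higher and 9 lower in KO hosts, with a median difference of -0.01. Cd3e encodes the epsilon chain of the CD3 complex. Its level was lowest at 6.31, median 6.64 and highest 7.04 in KO hosts, and 6.46, 6.73 and 7.08 in WT hosts. KO minus WT came to -0.14 (95% interval -0.45 to 0.17). The highest tumours were WT hosts 1 and 5 and KO host 1, and the lowest was KO host 5, so that both groups covered nearly the same stretch. Cd3g, the gamma chain, ran from 5.54 through 5.96 to 6.60 in KO hosts and from 5.32 through 6.08 to 6.57 in WT hosts. Its means were equal to 2 decimals, at 5.96 in each group, and mouse 1 of each genotype stood highest.

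Cd2, an adhesion receptor of T and NK cells, ran from 5.61 through 6.09 to 6.50 in KO hosts and from 5.48 through 6.21 to 6.60 in WT hosts. Its difference was -0.01 (95% interval -0.44 to 0.42). WT host 2, KO host 6 and WT host 6 were the lowest. Thy1, a surface glycoprotein of mouse T cells that some fibroblasts also carry, had the smallest unadjusted p of the 34 genes. It ran from 7.06 through 7.25 to 7.42 in KO hosts and from 6.60 through 6.98 to 7.56 in WT hosts. The difference was 0.23 (95% interval -0.08 to 0.53, limma adjusted p = 0.9935), and WT host 5 lay above every KO tumour.

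The remaining pan-T genes differed by less than 0.11. Lat, the membrane adaptor that links ZAP-70 to downstream signals, was at 6.30 ± 0.27 (SD, n = 6) in KO hosts and 6.40 ± 0.05 (SD, n = 6) in WT hosts. Its WT tumours all lay within 6.35 to 6.46, inside the KO stretch of 6.03 to 6.72. Cd247, the zeta chain, differed by -0.04, and Zap70, the kinase it recruits, by 0.05. Differences of Cd3d, the delta chain, Cd5 and Cd6, members of the scavenger receptor family, and the costimulatory receptors Cd28 and Cd27 lay between -0.02 and 0.04. Lef1, a transcription factor of naive and memory-like T cells, and Il7r, the survival receptor for IL-7, differed by -0.01 and -0.02. Both genes spread widely, with Il7r between 5.61 in WT host 3 and 6.97 in WT host 5.

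**Figure D2:**
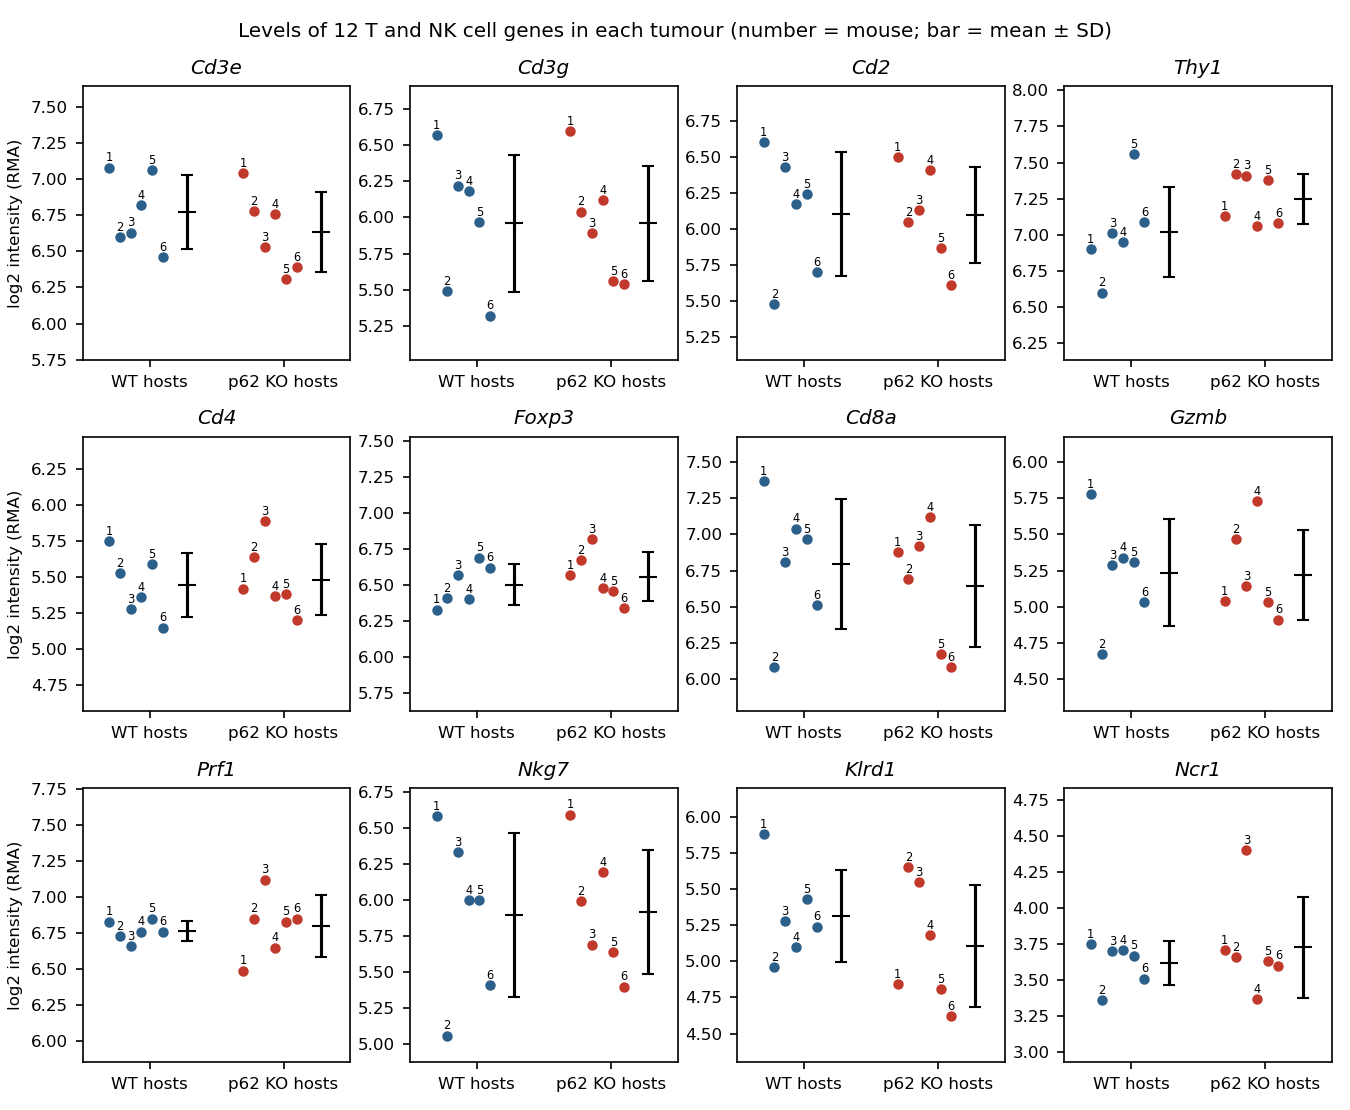
Log2 level of 12 of the genes in each of the 12 tumours. Points are tumours, numbers are mice within a genotype, and the bars beside them are mean ± SD (n = 6). Every panel spans 1.9 log2 units around its own centre, and in each panel the KO and WT tumours overlap.

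Of the CD4 and regulatory genes, 2 were higher and 3 lower in KO hosts, with a median difference of -0.04. Cd4, the coreceptor for MHC class II, ran from 5.20 through 5.40 to 5.89 in KO hosts and from 5.15 through 5.44 to 5.75 in WT hosts. Its difference was 0.04 (95% interval -0.25 to 0.32). Foxp3, the transcription factor that defines regulatory T cells, ran from 6.34 through 6.53 to 6.82 in KO hosts and from 6.33 through 6.49 to 6.69 in WT hosts. It had the narrowest span over the 12 tumours of all 34 genes, 0.49. Its difference was 0.05 (95% interval -0.16 to 0.27).

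Gata3, a factor of type 2 helper T cells that epithelium also uses, differed by -0.11 (95% interval -0.36 to 0.15). Il2ra, the high-affinity chain of the IL-2 receptor, differed by -0.08, and Icos, a costimulatory receptor, by -0.04. The level of Il2ra was below the lower quartile on 8 of 12 arrays.

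Of the CD8 and cytotoxic genes, 4 were higher and 5 lower, with a median difference of -0.02. Cd8a, which encodes a chain of the coreceptor for MHC class I, ran from 6.08 through 6.78 to 7.12 in KO hosts and from 6.08 through 6.89 to 7.37 in WT hosts. KO minus WT came to -0.15 (95% interval -0.64 to 0.33). WT host 1 was the highest, and WT host 2 and KO hosts 5 and 6 were the lowest. Cd8b1, the partner chain, differed by -0.07 (95% interval -0.45 to 0.31), with the same highest tumour and the same 3 lowest.

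Gzmb, a granzyme that starts death of the target cell, ran from 4.91 through 5.09 to 5.73 in KO hosts and from 4.67 through 5.30 to 5.78 in WT hosts. Its difference was -0.02 (95% interval -0.41 to 0.37). Prf1, the pore-forming perforin, ran from 6.49 through 6.84 to 7.12 in KO hosts and from 6.66 through 6.76 to 6.85 in WT hosts, and differed by 0.03 (95% interval -0.18 to 0.25). KO host 1 was the lowest tumour in Prf1 although it was at the top in Cd3g and Nkg7. Gzma, another granzyme, differed by -0.12, and its level was below the lower quartile on all 12 arrays. Eomes and Tbx21, the T-box factors of effector and NK cells, differed by 0.10 and 0.07. Ifng, the cytokine interferon gamma, and Fasl, a death ligand, differed by 0.04 and -0.05.

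Of the NK genes, 4 were higher and 2 lower, with a median difference of 0.02 that turned to -0.01 with a common median per array and with quantile normalization. Nkg7, a granule protein of NK cells and cytotoxic T cells, had the widest span of the 34 genes. It ran from 5.40 through 5.84 to 6.59 in KO hosts and from 5.06 through 6.00 to 6.58 in WT hosts. The highest and lowest tumours of each genotype thus differed by more than a log2 unit while the difference between the genotypes was 0.02 (95% interval -0.53 to 0.58). Klrd1, which encodes CD94, the partner of NKG2 receptors, ran from 4.62 through 5.01 to 5.65 in KO hosts and from 4.96 through 5.26 to 5.88 in WT hosts. Its difference was -0.21 (95% interval -0.63 to 0.22). Klrk1, the activating receptor NKG2D, differed by -0.14 (95% interval -0.56 to 0.27). Il2rb, the signalling chain shared by the IL-2 and IL-15 receptors, differed by 0.18 (95% interval -0.11 to 0.48).

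The genes closest to NK identity were dim. Ncr1, the receptor NKp46, ran from 3.37 through 3.64 to 4.40 in KO hosts and from 3.36 through 3.69 to 3.75 in WT hosts, and Klrb1c, the receptor NK1.1, lay between 3.21 and 3.78 in all tumours. Ncr1, Klrb1c, Gzma and Cd3d were below the lower quartile on all 12 arrays, and 13 of the 34 genes were below it on at least 1 array. No detection calls were used, and a level near the bottom of the scale does not show that the RNA was present.

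While the genotypes did not separate, some of the genes moved together from tumour to tumour. Nkg7, Cd2 and Cd3g ranked the tumours in nearly the same order. The pair with the highest correlation was Cd2 and Nkg7, with r = 0.967 and rho = 0.979 over 12 tumours. For Cd3g and Nkg7 r was 0.948 (rho 0.965), for Cd8a and Cd8b1 0.943 (rho 0.825) and for Cd3g and Cd2 0.925 (rho 0.923). These 4 pairs are the highest of 561 and are given without a test. Without the 2 tumours farthest from the median of the gene named first, r was 0.947 for Cd2 and Nkg7, 0.944 for Cd3g and Nkg7, 0.896 for Cd8a and Cd8b1 and 0.929 for Cd3g and Cd2. Within host genotypes, after subtracting the mean of each group, r was 0.968, 0.948, 0.944 and 0.925 in the same order. Among the 8 tumours with wider arrays it was 0.984, 0.976, 0.950 and 0.946.

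Of the 33 other genes, 7 had r of at least 0.7 with Nkg7 (21.2%), a level reached by 0.507% of all probe sets. They were Cd2, Cd3g, Cd8a, Cd27, Cd3e, Gzmb and Cd8b1. Thus the CD3 chains Cd3e and Cd3g, the costimulatory receptor Cd27, both CD8 chains and the granzyme Gzmb tracked Nkg7. Cd3d, Cd247, Cd28, Icos and Gzma, of the same classes, did not, with r of 0.47, -0.19, 0.35, 0.04 and 0.42. The NK receptors Ncr1, Klrb1c, Klrk1 and Klrd1 had r of 0.17, -0.22, 0.46 and 0.40. Cd3d, Gzma, Ncr1 and Klrb1c were below the lower quartile on all 12 arrays, Klrk1 on 9 and Klrd1 on 4. Cd247, Cd28 and Icos had r of -0.69, -0.63 and -0.81 with the interquartile range of the array. The part of low level and array spread in the values with Nkg7 was not tested. In tumours in which Nkg7 was high (KO host 1 and WT hosts 1 and 3), Cd2 was at 6.43 to 6.60, and in those in which it was low (WT hosts 2 and 6 and KO host 6), at 5.48 to 5.70. Prf1 did not follow it, with r = -0.38.

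**Figure D3:**
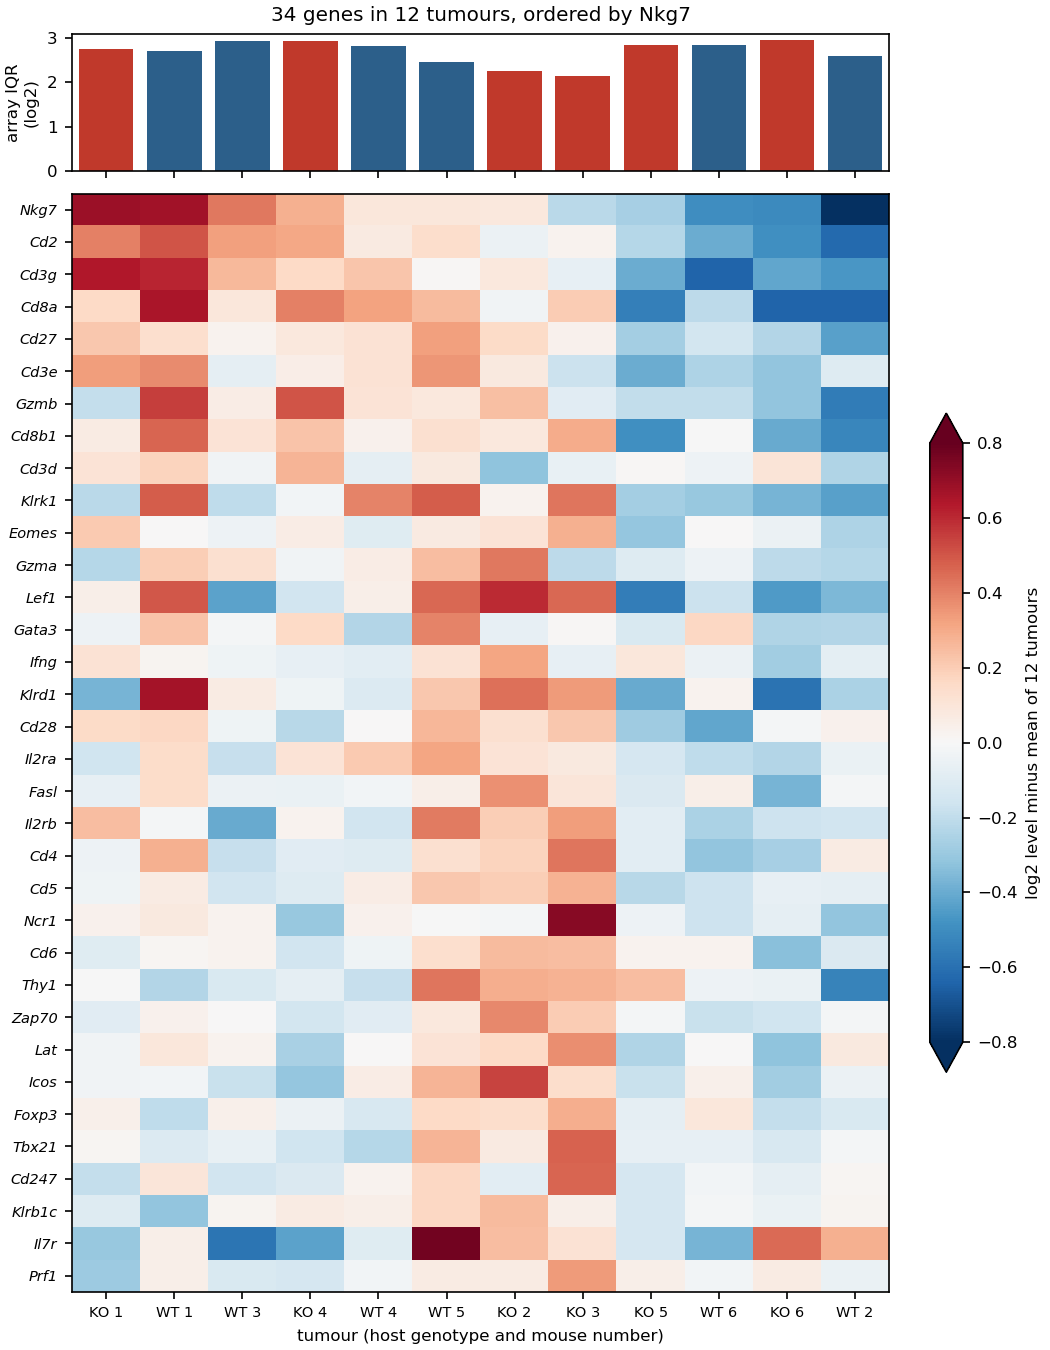
Log2 level of each of the 34 genes minus its mean over the 12 tumours, with tumours ordered from high to low Nkg7 and genes by their correlation with it. Bars on top give the interquartile range of each array, red for KO and blue for WT hosts. The genes of the upper rows grade from left to right, and most of those in the lower rows are high in WT host 5 and KO hosts 2 and 3, whose arrays have the 3 narrowest ranges.

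Over all pairs of the 34 genes, 78 of 561 had r of at least 0.7 (13.9%), against 10.3% of all pairs of probe sets. Over the 12 tumours pairwise correlation as such was thus near the background. Among the 8 tumours with wider arrays it was above the background, at 72 of 561 (12.8%) against 3.17% of all pairs. By group, over 12 tumours, the counts were 17 of 91 pairs of pan-T genes and 5 of 36 pairs of CD8 and cytotoxic genes. They were 1 of 15 pairs of NK genes and 0 of 10 pairs of CD4 and regulatory genes. Among the 8 tumours with wider arrays they were 14 of 91, 7 of 36, 1 of 15 and 0 of 10 in the same order. The pairs share their tumours and arrays, and these counts are a description.

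The levels were also set against the spread of the arrays. In 31 of the 34 the level correlated negatively with the interquartile range. The median r was lower in the 34 genes, at -0.50, than over all probe sets, at -0.33. Without KO hosts 2 and 3 these medians were -0.40 and -0.13. The permutation test, adjusted over all probe sets, passed for 14 of 34 (41.2%), all negative. Of all probe sets 60.9% passed, counted in either direction. An r of -0.7 or below was found in 9 of 34 (26.5%) against 32.1% of all. By these counts the relation to array spread was no more frequent in these genes than on the array as a whole. The strongest were Zap70 (r = -0.86, rho = -0.75, adjusted permutation p = 0.00248), Cd5 (r = -0.85, rho = -0.76, adjusted permutation p = 0.00289) and Cd4 (r = -0.84, rho = -0.85, adjusted permutation p = 0.00292). Without KO hosts 2 and 3, the arrays farthest from the median, 1 of 34 passed, Icos (r = -0.79, rho = -0.75, adjusted permutation p = 0.0416), and r of Zap70 was -0.68. None of the 7 genes that tracked Nkg7 passed, with r = 0.01 for Cd2, -0.03 for Cd3g, -0.01 for Gzmb, -0.15 for Cd8a, -0.19 for Cd3e, -0.27 for Cd27 and -0.28 for Cd8b1. Without KO hosts 2 and 3, r of Cd3e was -0.55 (rho -0.61), and the other 6 lay between -0.23 and 0.12. Nkg7 itself had r = 0.10.

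**Figure D4:**
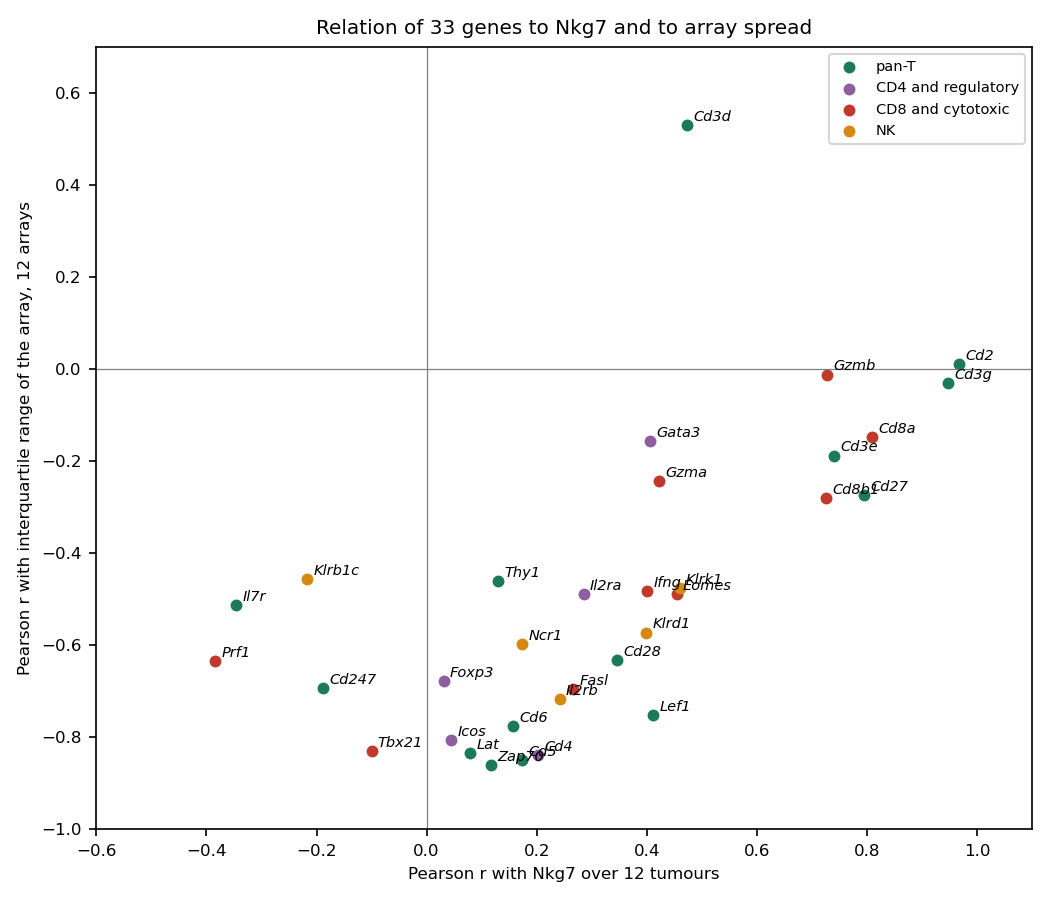
Pearson r of each of 33 genes with Nkg7 (horizontal axis) and with the interquartile range of the array (vertical axis), both over 12 tumours, coloured by group. Cd2, Cd3g, Cd8a, Cd27, Cd3e, Gzmb and Cd8b1 lie at the right with r near 0 to -0.28 on the vertical axis, and Zap70, Cd5, Cd4, Lat and Tbx21 lie at the bottom.

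The mean over all genes of a group was set against its own mean over 12 tumours. For the 14 pan-T genes it was highest in WT host 5 (0.25), WT host 1 (0.18) and KO host 3 (0.17), and lowest in WT host 6 (-0.20) and KO host 5 (-0.19). For the 9 CD8 and cytotoxic genes it was highest in WT host 1 (0.22) and lowest in WT host 2 and KO host 6 (-0.26 each). For the 6 NK genes it was highest in KO host 3 (0.27) and WT host 1 (0.26), and lowest in WT host 2 (-0.33) and KO host 6 (-0.29). Counted by gene, KO host 3 held the highest level of 9 of the 34 genes, KO host 2 that of 8, and WT hosts 1 and 5 that of 7 each. KO host 6 and WT host 2 held the lowest of 8 each. High and low tumours thus came from both genotypes. The arrays of KO host 3, KO host 2 and WT host 5 also had the highest medians over all probe sets, 6.444, 6.405 and 6.328. Medians of the other arrays lay between 6.207 and 6.274. The part of these medians in the group means and counts was not tested.

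A set of 12 relations between tumours was tested, with permutation p adjusted over the 12. Those of Cd3e with Cd8a (r = 0.76, rho = 0.76, adjusted permutation p = 0.0409) and with Nkg7 (r = 0.74, rho = 0.75, adjusted permutation p = 0.0409) passed. Without KO host 5 and WT host 1, the tumours farthest from the median of Cd3e, r was 0.62 and 0.70 and neither passed (adjusted permutation p = 0.244 each). Among the 8 tumours with wider arrays r was 0.89 for each pair (adjusted exact permutation p = 0.0342 each), rho did not pass (adjusted exact permutation p = 0.0869 for Cd8a and 0.0871 for Nkg7), and the 4 narrower arrays are too few for a value. Within genotypes r was 0.75 and 0.78. Without KO hosts 2 and 3 it was 0.82 and 0.73 (adjusted permutation p = 0.0654 and 0.0683). When 1 tumour was left out, both relations still passed by r without WT host 2, 3 or 5. That with Cd8a alone passed by r without KO host 3, and neither passed by r without any of the other 8. By rho both passed without KO host 2 or 4, and that with Cd8a alone without KO host 3. Neither call thus held against the loss of most single tumours. Over these omissions r itself lay between 0.69 and 0.82 with Cd8a and between 0.68 and 0.81 with Nkg7.

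The other 10 relations did not pass. Cd3e had r of 0.40 with Cd4 (rho 0.45, adjusted permutation p = 0.403), 0.03 with Foxp3 (rho 0.01, adjusted permutation p = 0.997) and 0.01 with Ncr1 (rho 0.47, adjusted permutation p = 0.997). Without KO host 3 alone, r was 0.68 with Cd4 (rho 0.64, adjusted permutation p = 0.0819) and 0.41 with Ncr1 (rho 0.69, adjusted permutation p = 0.364). With Ptprc, the leukocyte antigen CD45, Cd3e had r of 0.53 (rho 0.67, adjusted permutation p = 0.182), and with Cxcl9, a chemokine that draws T cells, 0.57 (rho 0.68, adjusted permutation p = 0.17). In the 8 tumours with wider arrays r of Cd3e with Ptprc was 0.83 and passed (adjusted exact permutation p = 0.0407), while rho did not (adjusted exact permutation p = 0.0871). With array spread as a covariate r was 0.71 and rho 0.85, and both passed (adjusted permutation p = 0.022 and 0.0104). Nkg7 had r of 0.66 with Il15, a cytokine that keeps NK and memory CD8 T cells alive (rho 0.58, adjusted permutation p = 0.0794). With array spread as a covariate this r was 0.78 and passed (adjusted permutation p = 0.022), while rho did not (adjusted permutation p = 0.0524). In the 8 tumours with wider arrays r was 0.57 (adjusted exact permutation p = 0.211). Gzmb and Prf1, released together from granules, had r of -0.00 (rho 0.03, adjusted permutation p = 0.997). Thy1 had r of 0.00 with Cd3e (rho -0.07) and 0.01 with the collagen gene Col1a1 (rho -0.10), and Gata3 had 0.06 with Krt8 (rho 0.11), each at an adjusted permutation p of 0.997. In the 8 tumours with wider arrays Thy1 had r of -0.64 with Cd3e (rho -0.60) and -0.88 with Col1a1 (rho -0.60).

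Outside the list, the genes most like Nkg7 over the 12 tumours were H2-Eb1 (r = 0.954), Fgfr2 (0.939), H2-Ab1 (0.932), Plbd1 (0.904), H2-Aa (0.900) and Cd74 (0.895). H2-Eb1, H2-Ab1 and H2-Aa encode chains of MHC class II, and Cd74 the invariant chain that accompanies them. They were followed by Gpr171, AW112010, Cadm1, Cd72, Scrg1 and Gm5174, at 0.841 to 0.893. H2-Eb1 ran from 6.69 in WT host 2 to 9.43 in WT host 1, a wider stretch than that of Nkg7. Between the genotypes it differed by -0.25, without reaching an unadjusted p under 0.05. Among the 8 tumours with wider arrays its r with Nkg7 was 0.948, and within genotypes 0.967.

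The genes most like Cd3e were Ciita (r = 0.883), the transactivator of MHC class II, Spata45 (0.878), Gm10791 (0.842), Sh2d7 (0.832), Fxyd1 (0.832) and Penk (0.826). After them came Morn5, Gimap3, Gpr174, F630111L10Rik, Ms4a4b and Wfdc12, at 0.794 to 0.825. Gimap3, a GTPase of T cells, had r = 0.818 and Ms4a4b, a T cell membrane protein, 0.795. These are the highest of all genes with 1 symbol, and they are given as a description with no test.

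**Figure D5:**
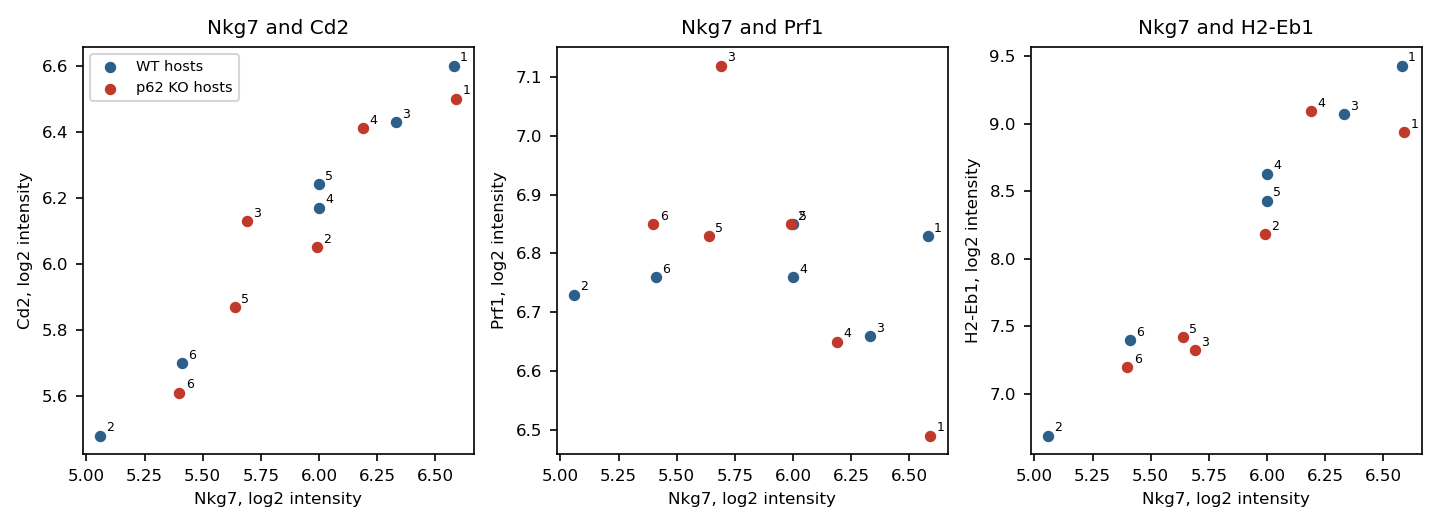
Log2 level of Cd2, Prf1 and H2-Eb1 against that of Nkg7 in the 12 tumours, coloured by host genotype, with the mouse number beside each point. Cd2 and H2-Eb1 line up with Nkg7 (r = 0.967 and 0.954), Prf1 does not (r = -0.38), and both genotypes lie along the same line.

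Genes of the same pathways outside the list were not called either. The counts of higher and lower genes below stand beside 16136 higher and 12056 lower of all 28192 probe sets. In T cell receptor signalling 16 of 26 measured genes were higher in KO hosts and 10 lower, with 0 called and a median of 0.02. Havcr2, the checkpoint receptor TIM-3 that macrophages and dendritic cells also carry, had the smallest p there. It ran from 6.52 through 7.88 to 8.21 in KO hosts and from 7.63 through 8.56 to 8.91 in WT hosts, a difference of -0.92 with a 95% interval of -1.55 to -0.29. In limma the unadjusted p was 0.00726 and the adjusted p = 0.9935. Over all settings the difference of Havcr2 lay between -1.09 and -0.50, the latter without KO hosts 2 and 3. Of 19 T cell transcription factors 13 were higher and 6 lower, with a median of 0.04.

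Of 25 chemokines and homing receptors 14 were higher and 11 lower, with a median of 0.03. Those at an unadjusted p under 0.05 were Ccr6 (difference 0.29), Cxcr4 (0.37) and Cxcr6 (-0.40), receptors that guide lymphocytes. The chemokines Cxcl9, Cxcl10 and Ccl5, which draw effector T cells, differed by -0.21, -0.35 and -0.09. Over all settings Cxcl9 lay between -0.80, in the 8 tumours with wider arrays, and 0.13, without KO host 6. Ccl5 lay between -0.25 and 0.03 and Cxcl10 between -0.60 and -0.24. Of 20 lymphocyte cytokines 17 were higher and 3 lower, with a median of 0.09, and Il15 differed by 0.02. Of 32 other NK and cytotoxic genes 21 were higher and 11 lower (median 0.03), among them Gzmc (0.22), a granzyme that was below the lower quartile on all 12 arrays. Of 6 NK receptor ligands 3 were higher and 3 lower (median 0.04), with Pvr, a ligand of DNAM-1, at 0.38. In the list for gamma delta T cells all 4 measured genes were higher (median 0.08), and which cells carried their RNA was not tested. The constant segments of the T cell receptor were not analysed here.

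Markers of other cells were compared in the same way, and 0 were called in any list. The pan-leukocyte list had a median of 0.03 (5 higher and 3 lower of 8), and Ptprc differed by -0.07. Medians were 0.11 for 9 B and plasma cell genes, 0.15 for 10 macrophage genes, -0.06 for 8 dendritic cell genes, 0.11 for 8 mast cell and basophil genes, 0.37 for 8 neutrophil genes, -0.03 for 8 fibroblast genes, 0.05 for 8 epithelial genes, -0.02 for 6 prostate gland genes and 0.12 for 5 lymph node stroma genes. At an unadjusted p under 0.05 were Cd79a of B cells (0.63, adjusted p = 0.9935 in limma) and the neutrophil genes S100a9 (0.58), Ly6g (0.44) and S100a8 (0.43). They were 1 of 9 B and plasma cell genes and 3 of 8 neutrophil genes, against 2.39% of all probe sets. Without KO hosts 2 and 3, Ly6g and S100a8 differed by 0.16 and 0.17, S100a9 by 0.46 and Cd79a by 0.57. Ly6g was below the lower quartile on 11 of 12 arrays and Cd79a on 9. Of the 10 macrophage genes 9 were higher and 1 lower, and the lower one was Adgre1, at -0.13. Without KO hosts 2 and 3 Adgre1 differed by 0.27. Of the 8 fibroblast genes 3 were higher and 5 lower, with Col1a1 at -0.03. The part of these cells in the lymphocyte values was not tested.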

How the data were processed

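Per the labels, total RNA of 12 tumours was amplified and read on single-colour arrays, 1 per tumour. RMA is named in the submitters' processing notes, and the authors deposited log2 values. Of 34760 rows, 6568 with the lowest identifiers and no gene in the platform annotation were left out as controls, and 28192 were tested.

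Where several probe sets had exactly 1 and the same symbol, the brightest on average was taken. Two-sided limma tests (version 3.58.1, R 4.3.3, lmFit with eBayes, genotype as the only term) were adjusted by Benjamini-Hochberg over all probe sets, at a threshold of 0.05. Correlations across tumours were tested by two-sided permutation (100000 resamples, or all 40320 orders for 8 tumours). A step on simulated data was run first. The genes and lists were chosen with earlier results of these data known. Named were all 37 genes, up to 4 genes per list with unadjusted p under 0.05, 9 set reference genes, and the 12 genes most like Cd3e and Nkg7.

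Over whole arrays, deviations of same-numbered mice of the 2 groups from their group means correlated at -0.55 to 0.37. Array spread enters these values, so they cannot decide whether the numbers pair the tumours. The main test treated the tumours as unpaired. Alternatives were a common median, quantile normalization, leaving out dim probe sets, the mean of probe sets, all rows, eBayes with trend and robust, array weights, a mouse block, the interquartile range as a covariate, and omission of tumours. Added after the data were seen were levels minus the group mean, omission of the 2 farthest tumours, the test against array spread and the pairwise correlations in subsets.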

Additional observations from a re-analysis of the deposited data

Results flagged for a closer look

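Some tumours stood apart from the other 5 of their group in single genes. Of 104 groups of 6 that were examined, 9 held such a tumour, where chance gives about 1 in 20. KO host 3 was high in Cd247 (6.45, others 5.79 to 5.91), Tbx21 (5.87, others 5.24 to 5.47) and Ncr1 (4.40, others 3.37 to 3.71), and its array had the narrowest interquartile range of the 12, 2.15. KO host 2, with the next narrowest range (2.26), was high in Gzma (4.49, others 3.84 to 4.04). The part of array spread in these values was not tested.

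WT host 2, which was also the lowest tumour in Nkg7 and Cd2, was low in Ptprc (8.70, others 9.51 to 10.0) and in Cxcl9 (6.85, others 8.70 to 9.35). KO host 4 was high in Cxcl10 (9.91, others 8.18 to 8.68). KO host 1 was low in Cd79a (4.58, others 5.05 to 5.24), and WT host 5 was low in Havcr2 (7.63, others 8.48 to 8.91).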

How the results depend on the processing

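None of the 34 genes was called by limma in any of 24 settings. The number at an unadjusted p under 0.05 was 0 in 18 settings and up to 3 in the other 6. With array weights they were Lat (-0.24), Klrd1 (-0.47) and Gzma (-0.20), and with array spread as a covariate Lat (-0.15). Without KO hosts 2 and 3 they were Lat (-0.26), Klrd1 (-0.45) and Icos (-0.22), and in the 8 tumours with wider arrays Lat (-0.24), Klrd1 (-0.51) and Gzma (-0.23). Without KO host 2 it was Gzma (-0.22), and without WT host 5 Thy1 (0.34) and Il2rb (0.29). Of the 34 differences, all uncalled, 22 turned direction in at least 1 setting and 12 in none. A common median per array and quantile normalization each turned 5, all from above 0 to below. Of 18 named pathway and marker genes, 7 turned at least once. Group medians lay between -0.10 and 0.05 for pan-T, -0.12 and 0.02 for CD4 and regulatory, -0.18 and 0.05 for CD8 and cytotoxic, and -0.11 and 0.08 for NK genes. The filter on dim probe sets kept 8 of the 34 genes and no NK gene, which gave no NK value.

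The count of probe sets called lower over the whole array, 1 in the report, was 0 with the filter on dim probe sets, with all rows tested, with the mouse number as a replicate block and without KO hosts 2 and 3, and 0 to 1 when single tumours were left out. The block changed no call among the 34 genes. Of the 12 relations, 2 passed in the report, 0 with quantile normalization, 0 without KO hosts 2 and 3, 0 without the 2 farthest tumours, 4 in the 8 tumours with wider arrays, 4 with array spread as a covariate, and 0 to 2 when single tumours were left out. These counts are by r. By rho 2 passed over 12 tumours, 4 with quantile normalization, 3 with a common median, 0 without KO hosts 2 and 3, 0 in the 8 tumours with wider arrays, 3 with array spread as a covariate, 0 within genotypes, and 0 to 4 when single tumours were left out. The relation of Thy1 and Col1a1 turned to r = -0.877 in the 8 tumours with wider arrays (rho -0.60, adjusted exact permutation p = 0.037 for r and 0.198 for rho). Causes were not tested. Precision is limited by the number of arrays, and 4 genes lay below the lower quartile on all 12.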
